A study of Mus musculus with 6 samples.

Results

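Odorant receptor transcripts were examined in the mouse testis. The table of the study listed 386 genes whose symbol begins with Olfr and a digit, among 36652 genes. A gene was taken as detected where its normalized count averaged at least 10 over all 6 libraries. By this rule 57 of the 386 were detected and 329 were not. The level rule used the same counts that are described here, so the levels below describe the choice and are not a finding. The rule did not use the contrast between genotypes.

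Olfactory receptors are G protein-coupled receptors that make up the largest receptor family of the mouse genome, arranged in clusters of near copies on many chromosomes. In an olfactory neuron a single receptor allele is usually chosen, and odorant binding acts through the G protein Golf, adenylyl cyclase 3 and a cyclic nucleotide-gated channel. Transcripts of some of these receptors are also known from male germ cells, and a few receptors have been linked to sperm chemotaxis.

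The libraries came from whole testes of mice at 8 weeks of age, 3 labelled WT and 3 labelled Ccdc117ko. All 6 were stranded mRNA libraries prepared from total RNA. The labels describe neither the allele, the strain nor any cell type restriction of the Ccdc117 change, and do not say whether the 3 libraries of a genotype came from separate mice. P-values therefore measure the spread between these libraries, which may be technical. The recovered whole reads totalled between 35791616 and 43461692 per library. Ccdc117 itself, the gene named in the genotype, had normalized counts of 3657, 3826 and 3931 in WT and of 3478, 3772 and 3908 in Ccdc117ko (log2 fold change -0.03 ± 0.05 (SE), limma adjusted p = 0.763). The gene total therefore does not check the genotype labels, and every direction below is that of libraries as labelled.

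The detected receptor genes were mostly rare. Of the 386 rows, 184 averaged under 1 normalized count, 112 from 1 to under 5 and 33 from 5 to under 10. Among the 57 detected genes 24 lay from 10 to under 20, 22 from 20 to under 50, 7 from 50 to under 100 and only 4 at 100 or more. Their median was 22.3 normalized counts, against 39.9 for all rows of the table, and 13 of the 57 lay above that table median. The rule's edge fell between Olfr279 and Olfr761, which averaged 10.5 and 10.1, and Olfr1358 and Olfr93, which averaged 9.32 and 9.29. The rule was met within both genotypes by 48 genes, within Ccdc117ko alone by 6 and within WT alone by 3. All 57 passed the filter of the genome-wide fit, and 54 had at least 3 reads in every library.

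**Figure D1:**
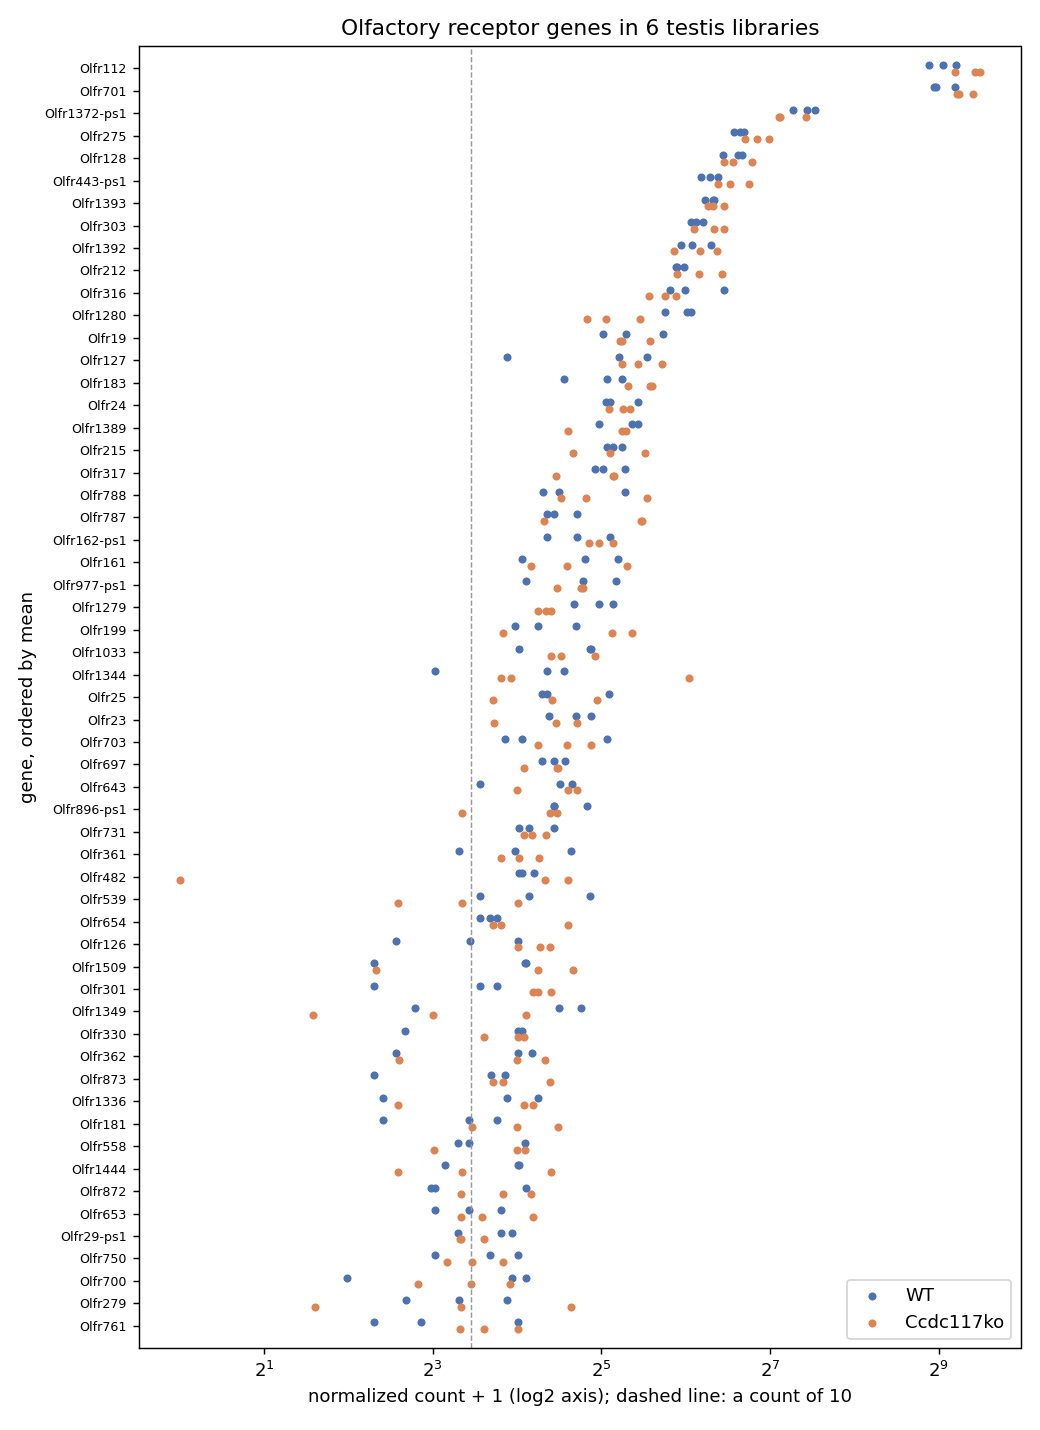
Normalized count plus 1 (log2 axis) of each of the 57 detected olfactory receptor genes in the 3 WT and the 3 Ccdc117ko libraries, ordered by mean. Each point is 1 library and the dashed line marks a count of 10. Olfr112 and Olfr701 stand above all others, and the spread between libraries widens toward the bottom, where 1 Olfr482 library has no read.

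A pair of genes carried a large share of the signal. Olfr112 and Olfr701 together held between 37.2% and 39.6% of the summed normalized counts of the 57 genes in the WT libraries, and between 41.2% and 43.2% in the Ccdc117ko libraries. Olfr112 (ENSMUSG00000051611) lies on chromosome 17 from 37561668 to 37569451 on the minus strand of GRCm38, and Olfr701 (ENSMUSG00000036744) on chromosome 7 from 106814129 to 106821472 on the plus strand. Both are annotated as protein-coding with transcripts of up to 5 exons. Divided by the length of all annotated exons, Olfr701 was highest at 137 normalized counts per kb and Olfr112 next at 125. Olfr443-ps1 followed at 52.7 and Olfr275 at 31.4, while the median of the 57 genes was 7.21 and the lowest, Olfr539, reached 1.23. The nearest olfactory receptor gene with a row lay 4.43 kb from Olfr112 (Olfr113, mean 0.333 normalized counts) and 2.02 kb from Olfr701 (Olfr702, mean 0.531). The high level of either gene was thus not shared by its closest neighbour. The nearest other gene to Olfr701, 4930458B22Rik, lay 0.027 kb away and averaged 131 normalized counts.

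The other genes with a mean of 50 or more were Olfr1372-ps1, Olfr275, Olfr128, Olfr443-ps1, Olfr1393, Olfr303, Olfr1392, Olfr212 and Olfr316. Olfr1372-ps1 is annotated as a transcribed pseudogene on chromosome 11, as is Olfr443-ps1 on chromosome 6. In all, 52 of the 57 were annotated as protein-coding and 5 as some form of pseudogene. Olfr1393, known from the kidney proximal tubule, where it takes part in glucose handling, had 73.8, 78.9 and 79.6 normalized counts in WT and 76.0, 79.3 and 86.7 in Ccdc117ko, the smallest spread for its depth among the 57. Its neighbour Olfr1392, 2.51 kb away, had 60.8, 66.4 and 77.6 in WT and 57.0, 71.1 and 81.6 in Ccdc117ko. Of the 50-base words in its exons, Olfr1393 shared 30.6% with other transcripts, most with Olfr1392, so reads of this pair could be split between them.

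The 57 genes lay on 12 chromosomes, with 15 on chromosome 7, 8 on chromosome 11 and 6 each on chromosomes 9 and 16. For 22 of them another detected receptor gene lay within 20 kb. With detected genes linked up to 100 kb apart, 35 fell into 15 groups of at least 2 and 22 stood alone. Transcripts with more than 1 exon were annotated for 52 of the 57, and the median annotated exon length was 3041 bases, against 2873 for the receptor genes not detected. A median of 5.24% of 50-base words was shared with other genes, 9 genes shared none and 8 shared at least 20%. These 8 were Olfr1344, Olfr643, Olfr482, Olfr1393, Olfr1392, Olfr29-ps1, Olfr761 and Olfr443-ps1, and their counts are uncertain to that extent. Olfr1344 also overlapped Gm20715 on the same strand over 72.8% of its exons, and it had the widest spread for its depth, with 19.5, 7.18 and 22.6 normalized counts in WT and 13.0, 14.2 and 64.5 in Ccdc117ko.

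Promoter windows of 300 bases, from 250 before to 50 after the RefSeq start (GRCm38.p6), were matched for 43 of the 57 genes. In 37 of the 43 the RefSeq start lay more than 50 bases from the most upstream GENCODE start, and in 6 it lay within that distance. Most of the 37 lay within 50 bases of another GENCODE start of the same gene. The windows below belong to 4 of those 6: Olfr701, the most abundant gene per length; Olfr212, among the 12 highest counts; and Olfr183 and Olfr301, whose genotypes did not overlap. Capitals mark matches, on either strand, to 6 motifs searched: the cyclic AMP response element TGACGTCA and its shorter form TGACG, the Olf-1/EBF core CCCNNGGG, the homeodomain core TAATTA, the RFX core GTTGCC and the TATA box TATAAA.
Olfr701, chr7:106813879-106814178, + strand: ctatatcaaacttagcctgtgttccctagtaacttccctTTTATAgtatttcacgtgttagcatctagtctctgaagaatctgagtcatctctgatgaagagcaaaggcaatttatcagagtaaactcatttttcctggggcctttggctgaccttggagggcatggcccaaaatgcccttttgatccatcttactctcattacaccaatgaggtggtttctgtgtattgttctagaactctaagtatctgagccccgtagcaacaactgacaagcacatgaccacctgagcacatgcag
Olfr212, chr6:116506266-116506565, + strand: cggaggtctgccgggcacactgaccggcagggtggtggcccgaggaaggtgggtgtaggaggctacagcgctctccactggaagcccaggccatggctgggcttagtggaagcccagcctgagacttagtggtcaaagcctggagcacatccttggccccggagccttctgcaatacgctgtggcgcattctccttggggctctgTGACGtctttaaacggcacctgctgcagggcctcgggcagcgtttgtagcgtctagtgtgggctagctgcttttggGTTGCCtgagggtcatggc
Olfr183, chr16:58995154-58995453, + strand: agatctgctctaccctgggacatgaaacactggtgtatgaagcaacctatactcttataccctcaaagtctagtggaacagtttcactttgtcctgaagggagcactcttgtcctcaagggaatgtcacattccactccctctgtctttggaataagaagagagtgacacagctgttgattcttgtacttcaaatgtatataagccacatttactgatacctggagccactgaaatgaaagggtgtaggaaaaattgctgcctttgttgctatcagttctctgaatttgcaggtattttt
Olfr301, chr7:86403599-86403898, + strand: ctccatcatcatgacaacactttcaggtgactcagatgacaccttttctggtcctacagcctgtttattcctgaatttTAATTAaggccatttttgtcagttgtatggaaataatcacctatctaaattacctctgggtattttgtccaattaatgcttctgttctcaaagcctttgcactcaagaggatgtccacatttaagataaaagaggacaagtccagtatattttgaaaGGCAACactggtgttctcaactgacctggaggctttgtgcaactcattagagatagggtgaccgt
The Olfr701 window held a TATA match, the Olfr212 window the short cyclic AMP element and an RFX core, and the Olfr301 window a homeodomain core and an RFX core. The Olfr183 window held none of the 6. The full element TGACGTCA was found in 0 of the 43 windows, in 0.11% of 905 windows of the receptor genes not in the set and in 1.79% of all 32851 windows. The shorter TGACG was in 9.3% of the 43, 5.41% of the other receptor windows and 20.8% of all windows, GTTGCC in 9.3%, 5.41% and 12.5%, and CCCNNGGG in 4.65%, 2.98% and 13.7%. TAATTA was in 23.3% of the 43, 18.3% of the other receptor windows and 5.29% of all windows, and TATAAA in 46.5%, 40.8% and 13.6%. Median GC content was 38%, 35% and 52.7% in the same order. By GC content, the homeodomain core and the TATA box, the 43 windows lay nearer to those of other receptor genes. The short cyclic AMP element and the RFX core each matched 4 of the 43, and the Olf-1/EBF core 2. These counts are too few to place the windows by those motifs. Each match is a run of letters and no measured site.

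No detected olfactory receptor gene differed between the genotypes past an adjusted p of 0.05. The test was limma's moderated test on the log2 values of 32783 genes, two-sided with Benjamini-Hochberg adjustment. It called 0 of the 57, against 6.8% of all genes tested, of which 3.7% were called higher and 3.1% lower in Ccdc117ko. Among the 9281 genes with a mean from 10 to that of the third most abundant receptor gene, 1.8% were called. At an unadjusted p under 0.05 there were 6 of the 57, or 10.5%, against 22.7% of all genes tested. Without Olfr112 and Olfr701, which lie above that range of levels, there were 4 of 55 (7.27%), against 13.4% of the 9281 genes in it. The log2 fold changes ran from -1.12 to 1.07 with a median of 0.06, against 0.00 for all genes tested, and the quartiles were -0.10 and 0.28. In 37 of the 57 (64.9%) the value was above 0, against 50.2% of all genes tested. The 3 libraries of one genotype all lay above those of the other for 6 genes (10.5%), against 27.0% of all genes tested. Of these 6, Olfr701, Olfr275, Olfr183 and Olfr301 were higher in Ccdc117ko (13.7% of all genes) and Olfr1280 and Olfr1279 lower (13.3%).

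**Figure D2:**
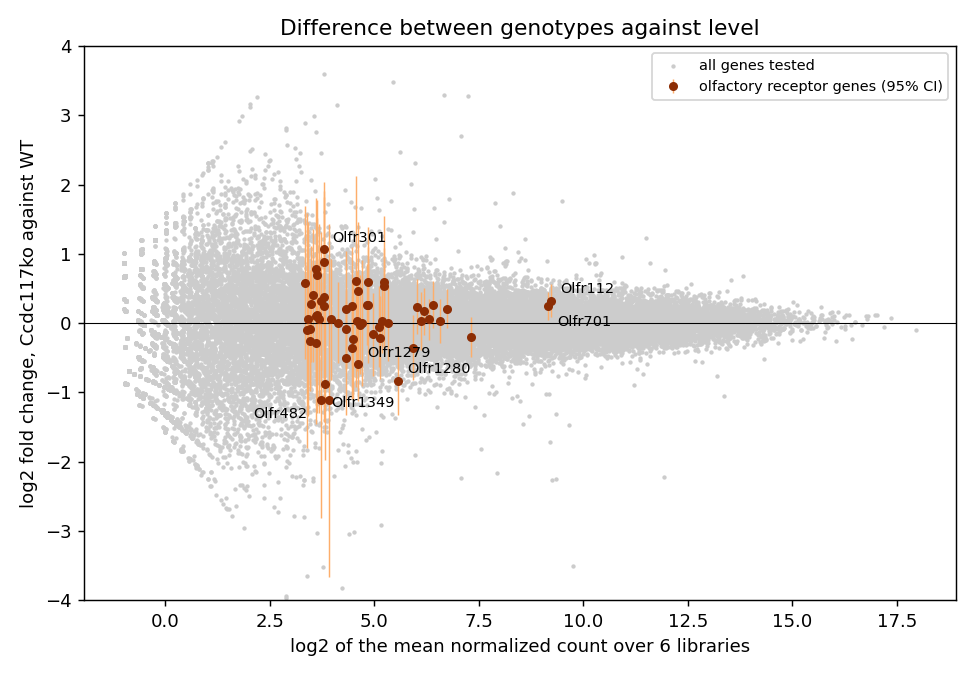
Log2 fold change, Ccdc117ko against WT, plotted against the log2 of the mean normalized count for all genes tested (grey, those between -4 and 4) and for the 57 olfactory receptor genes (brown, with 95% confidence intervals). The receptor genes run from -1.12 to 1.07, and their intervals widen toward low levels.

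Precision followed the level. For the 11 genes averaging 50 or more the median standard error was 0.14 and the median half-width of the 95% interval 0.32 on the log2 scale. For the 22 genes from 20 to under 50 these were 0.31 and 0.72, and for the 24 from 10 to under 20 they were 0.44 and 1.01. Differences smaller than about these widths could not pass the test, and larger ones could still miss the adjusted threshold. Olfr1280, at -0.83 with a 95% interval of -1.33 to -0.33, was not called. The widths reflect the spread between the 3 libraries of a genotype, and not depth alone. The variance between libraries of a genotype was a median of 1.80 times that of counting alone, and under 2 times in 34 genes. The largest absolute log2 fold changes in the 3 classes were 0.35, 0.83 and 1.12.

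Both abundant genes had higher means in Ccdc117ko without passing the test. Olfr112 had normalized counts of 587, 530 and 473 in WT and of 584, 689 and 720 in Ccdc117ko. A pair of Ccdc117ko libraries lay above every WT library, and the remaining one within the WT range. It averaged 530 ± 57.2 in WT and 664 ± 71.3 in Ccdc117ko (SD, n = 3 each), a ratio of 1.25, with a log2 fold change of 0.32 ± 0.11 (SE) and a limma adjusted p of 0.111. Olfr701 had 585, 491 and 499 in WT and 602, 591 and 677 in Ccdc117ko. The genotypes did not overlap, although the highest WT and the lowest Ccdc117ko library lay close together. The log2 fold change was 0.25 ± 0.09 (SE) with a limma adjusted p of 0.142.

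Among the next most abundant genes, Olfr275 had 102, 98.7 and 94.3 normalized counts in WT and 103, 126 and 114 in Ccdc117ko (log2 fold change 0.21, limma adjusted p = 0.360). Its lowest Ccdc117ko library barely cleared the highest WT library. Olfr1372-ps1 ran the other way, with 154, 184 and 173 in WT and 137, 138 and 171 in Ccdc117ko (-0.20, limma adjusted p = 0.409), and its genotypes overlapped. Olfr443-ps1 had 77.1, 71.8 and 82.5 in WT and 107, 82.3 and 90.7 in Ccdc117ko (0.27, adjusted p = 0.327). Olfr316 had 55.3, 62.8 and 86.5 in WT and 53.0, 57.9 and 46.4 in Ccdc117ko (-0.35, adjusted p = 0.352). Both overlapped. The log2 fold changes of Olfr128, Olfr1393, Olfr303, Olfr1392 and Olfr212 were 0.03, 0.06, 0.17, 0.03 and 0.24, each with adjusted p from 0.475 to 0.969.

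The lowest adjusted p of the 57 belonged to Olfr1280, and it fell just short of the threshold. Olfr1280 (chromosome 2, 111314017 to 111326003, plus strand) had 53.2, 63.7 and 65.8 normalized counts in WT and 43.0, 27.4 and 32.2 in Ccdc117ko. Every Ccdc117ko library lay below every WT library. It averaged 60.9 ± 6.78 in WT and 34.2 ± 7.95 in Ccdc117ko (SD, n = 3 each), a ratio of 0.562, with a log2 fold change of -0.83 (95% interval -1.33 to -0.33) and a limma adjusted p of 0.0604. Olfr1279, which ends 4.97 kb upstream of it on the same strand, had 30.4, 34.1 and 24.6 in WT and 18.0, 19.3 and 20.2 in Ccdc117ko. Its genotypes did not overlap either, and the log2 fold change was -0.60 ± 0.23 (SE) with a limma adjusted p of 0.170. Olfr1280 shared 5.24% and Olfr1279 6.68% of 50-base words with other transcripts, most with Olfr1283 and Olfr1284.

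**Figure D3:**
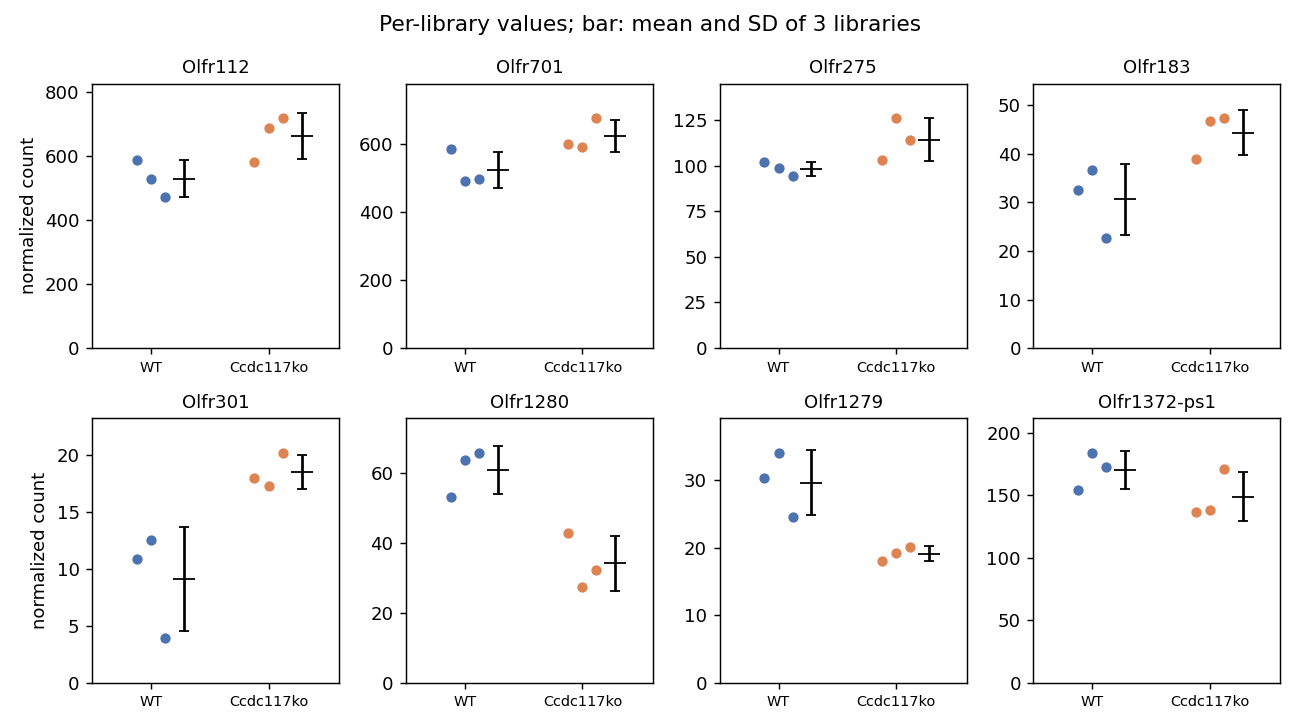
Normalized counts of 8 olfactory receptor genes in each library, 3 WT and 3 Ccdc117ko, with the mean and SD beside the points; each panel has its own axis from 0. Olfr1280 and Olfr1279 are lower in all 3 Ccdc117ko libraries, Olfr701, Olfr275, Olfr183 and Olfr301 are higher in all 3, and Olfr112 and Olfr1372-ps1 overlap; none of the 8 passed an adjusted p of 0.05.

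The stretch of chromosome 2 around this pair was also read, a window chosen after its values were seen. Within 250 kb of the pair 11 rows were tested, the pair included, of which 10 had a log2 fold change below 0 and 1, Gm13942, above, against 50.2% above 0 over all genes tested. The test called 2 of the 11, against 6.8% of all genes tested, and both were predicted genes lying between the receptor genes and Gm13942. Gm13941 fell from 355, 363 and 447 normalized counts in WT to 236, 201 and 286 in Ccdc117ko (-0.69 ± 0.14 (SE), limma adjusted p = 0.0338). Gm15130 fell from 297, 302 and 325 to 192, 235 and 244 (-0.47 ± 0.11 (SE), limma adjusted p = 0.0422). Each lost its call when any 1 library was left out, with adjusted p from 0.0845 to 0.169 over both genes. A26c3, which lies between them and the receptor genes and averaged 1704 normalized counts, had a log2 fold change of -0.08 (adjusted p = 0.523). A26c3 was the most abundant gene of the window. The other receptor genes there were rare. Olfr1275 had 7.60, 11.7 and 6.88 in WT and 0, 4.06 and 5.04 in Ccdc117ko, and Olfr1277 had 0, 6.28 and 3.93 in WT and no read in any Ccdc117ko library. Neither passed the test. Olfr1277, and Olfr1283 with means of 2.37 in WT and 0.333 in Ccdc117ko, passed the filter of the fit through WT alone. A difference in this direction was thus part of how Olfr1277 and Olfr1283 came to be among the 11 rows.

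**Figure D4:**
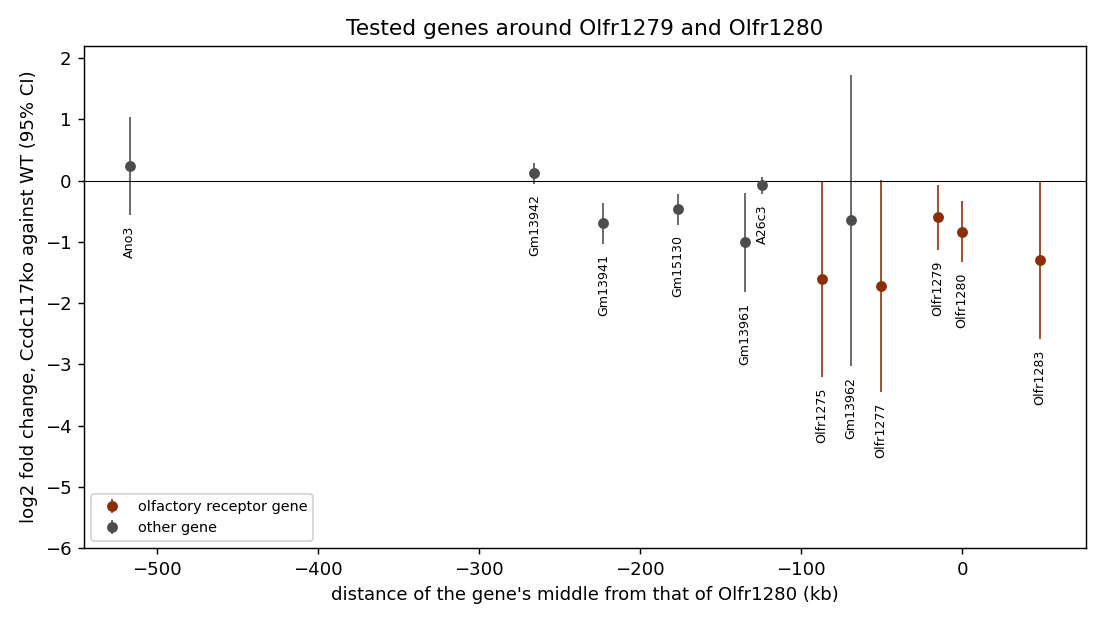
Log2 fold change with 95% confidence interval, Ccdc117ko against WT, of the tested genes around Olfr1279 and Olfr1280, by the distance of each gene's middle from that of Olfr1280. Most genes lie below 0, among them Olfr1277 and Olfr1283, which passed the filter of the fit through WT alone. Gm13942 and the more distant Ano3 lie above 0, and A26c3 close to 0.

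Of the rarer genes without overlap, Olfr183 had 32.6, 36.8 and 22.6 normalized counts in WT and 39.0, 46.7 and 47.4 in Ccdc117ko (log2 fold change 0.54, limma adjusted p = 0.220). Olfr301 had 10.9, 12.6 and 3.93 in WT and 18.0, 17.3 and 20.2 in Ccdc117ko. It showed the largest positive value, 1.07 (95% interval 0.10 to 2.04, adjusted p = 0.178). Olfr301 met the level rule within Ccdc117ko alone, so a difference in this direction was part of how it came to be detected. The same holds for the next in size, Olfr126 at 0.88 (adjusted p = 0.245) and Olfr181 at 0.78 (adjusted p = 0.350), whose genotypes overlapped.

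The largest negative values came from genes with uneven libraries. Olfr482 had 17.4, 15.3 and 15.7 normalized counts in WT and 0, 23.4 and 19.2 in Ccdc117ko, so its value of -1.12 (limma adjusted p = 0.603) rested on the 1 library with no read, and without that library it was 0.37. Olfr1349 had 26.1, 21.5 and 5.90 in WT and 1.999, 16.3 and 7.05 in Ccdc117ko (-1.11, adjusted p = 0.428). Olfr539 had 28.2, 10.8 and 16.7 in WT and 4.997, 9.15 and 15.1 in Ccdc117ko (-0.88, adjusted p = 0.320). Olfr1349 and Olfr539 met the level rule within WT alone, so a difference in this direction was part of how they came to be detected. In all 3 genes the libraries of the genotypes overlapped.

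In most groups of linked receptor genes the log2 fold changes had the same sign, none of them past the test. Of the 15 groups, 9 had log2 fold changes above 0 in every member, 3 below 0 in every member and 3 in both directions. Only the sign was counted, also where values were small, as in Olfr1392 with Olfr1393 (0.03 and 0.06) and Olfr361 with Olfr362 (0.05 and 0.06). The groups above 0 included Olfr126, Olfr761, Olfr301, Olfr181 and Olfr873, which met the level rule within Ccdc117ko alone. A difference in this direction was thus part of how these genes came to be detected. Of all 57 genes, taken singly, 64.9% lay above 0, and no matching share for groups was worked out. The 4 genes on chromosome 17, Olfr126, Olfr127, Olfr128 and Olfr761, were all above 0, from 0.03 to 0.88. Their summed means were 145 normalized counts in WT and 170 in Ccdc117ko, and Olfr761 shared 25.3% of its words with other transcripts, most with Olfr127. The 3 groups below 0 were Olfr1279 with Olfr1280, Olfr316 with Olfr317, and Olfr25 with Olfr896-ps1. Neighbours can share reads, so they are not independent measurements.

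Besides Olfr1393, receptors with a described ligand or a role in sperm or testis were looked up by name. Of those planned, Olfr16, Olfr17, Olfr544 and Olfr1386 had no row and could not be examined. Olfr1509 was added after its values were seen. Olfr558, a receptor for short-chain fatty acids, had 9.77, 16.2 and 8.84 normalized counts in WT and 14.99, 7.11 and 16.1 in Ccdc117ko (0.10, limma adjusted p = 0.932). Olfr1509, which detects a sulfurous odorant of male mouse urine, had 16.3, 16.2 and 3.93 in WT and 18.0, 24.4 and 4.03 in Ccdc117ko, with 1 low library in each genotype (0.24, adjusted p = 0.895). Olfr78, another receptor for short-chain fatty acids, fell under the level rule at a mean of 9.02, with 5.43, 3.59 and 9.83 in WT and 16.0, 15.2 and 4.03 in Ccdc117ko. Olfr56 averaged 3.51. None of Olfr558, Olfr1509, Olfr78 and Olfr56 separated the genotypes.

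The summed level of the 57 genes was 2956, 2744 and 2611 normalized counts in WT and 2875, 3097 and 3232 in Ccdc117ko, with means of 2770 ± 174 and 3068 ± 180 (SD, n = 3 each). The genotypes overlapped in 1 library each. Without Olfr112 and Olfr701 the sums were 1784, 1723 and 1639 in WT and 1690, 1817 and 1835 in Ccdc117ko. The 329 genes below the rule summed to between 571 and 628 normalized counts in WT and between 580 and 678 in Ccdc117ko. No p-value is given for these sums, since the members were chosen on their levels.

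The partners of olfactory receptors in olfactory neurons were present in part. In a list of 52 genes of olfactory transduction, receptor trafficking and receptor choice, 51 had a row and 45 averaged at least 10 normalized counts. The test called 1 of the 51 higher and 1 lower in Ccdc117ko, against 6.8% of all genes tested in both directions together. An unadjusted p under 0.05 was found for 10 of the 51, against 22.7% of all genes. The median log2 fold change of the 51 was -0.07, against 0.00 for all genes tested, and 19 lay above 0, against 50.2%. Atf5, a transcription factor of the unfolded protein response that acts in the feedback of receptor choice, rose from 626, 629 and 608 to 838, 780 and 845 normalized counts (0.40 ± 0.06 (SE), limma adjusted p = 0.0151). Reep1, which helps receptors reach the cell surface, fell from 2997, 2802 and 3031 to 2340, 2294 and 2406 (-0.33 ± 0.05 (SE), limma adjusted p = 0.0151). The genotypes did not overlap for either gene, yet both calls were lost in 5 of the 6 fits that left out 1 library, with adjusted p from 0.0612 to 0.110. They held only without WT library 1.

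The core of the transduction cascade was uneven. Gnal, which encodes the alpha subunit of Golf, averaged 255 normalized counts, with 239, 278 and 267 in WT and 209, 264 and 275 in Ccdc117ko (-0.07, limma adjusted p = 0.776). Adcy3, the adenylyl cyclase of the cascade, averaged 154 (-0.15, adjusted p = 0.573). Cnga4, Cngb1 and Ano2, subunits of the cation channel and a chloride channel, averaged 234, 235 and 192. Cnga2, the principal subunit of that cation channel, averaged 2.27 with no read in 3 of 6 libraries. The receptor chaperones Rtp1 and Rtp2 averaged 32.7 and 8.19. Omp, the marker of mature olfactory neurons, averaged 1.62 with no read in 3 of 6 libraries, and 3 of 8 olfactory neuron markers averaged at least 10. Of these 8, Stoml3 was called lower, with 4.34, 3.59 and 1.97 in WT and no read in Ccdc117ko (limma adjusted p = 0.0356), against 6.8% of all genes tested. Stoml3 averaged only 1.65 and passed the filter of the fit through WT alone. A difference in this direction was thus part of how Stoml3 came to be tested, and its call is no support for a difference in these markers. Gap43, a protein of growing axons, ran the other way with 0, 4.49 and 3.93 in WT and 11.99, 16.3 and 19.1 in Ccdc117ko (limma adjusted p = 0.0671). Lhx2, a transcription factor of olfactory neurons, was also higher in all 3 Ccdc117ko libraries without passing the test (0.44, adjusted p = 0.135). Of the 8 markers 4 had a log2 fold change above 0. The receptor transcripts were thus measured in tissue in which Omp and Cnga2 were near 0.

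Several marker lists of testis cell types held genes called between the genotypes in the same libraries. Over all genes tested 6.8% were called, 3.7% higher and 3.1% lower in Ccdc117ko. Of 9 round spermatid markers 8 were called higher in Ccdc117ko, with a median log2 fold change of 0.41 and summed normalized counts from 56782 to 62570 in WT and from 70373 to 73804 in Ccdc117ko. Of 9 Sertoli cell markers 6 were called lower, with sums from 9840 to 10000 in WT and from 8129 to 8666 in Ccdc117ko. Of 8 spermatogonial markers 2 were lower, of 8 meiotic markers 2 lower, of 8 elongating spermatid markers 1 higher, and of 7 Leydig markers 3 higher and 1 lower. Of 5 macrophage and 4 peritubular myoid markers 1 each was lower, and of 4 endothelial and 3 tested epididymal markers 0 were called. These 25 calls came down to 21 without WT library 1 and to between 0 and 2 without any one of the other 5 libraries. In whole testis, fewer cells of a type and less RNA per cell cannot be told apart. The part of cell makeup in the values of the receptor genes was not tested.

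Whether any receptor gene was called depended on the fit. When only the 22878 genes averaging 10 or more were fitted, of which 16.6% were called, limma called 2 of the 57, Olfr1280 (adjusted p = 0.0242) and Olfr112 (0.0398), with 6 at an unadjusted p under 0.05 against 30.7% of genes in that fit. Within that fit, leaving out WT library 2 or 3 or Ccdc117ko library 2 or 3 left 0 called, while leaving out WT library 1 gave 3 (Olfr701, Olfr1280 and Olfr112) and Ccdc117ko library 1 gave 3 (Olfr1280, Olfr112 and Olfr787). Limma-voom on the recovered reads called Olfr1280 alone (log2 fold change -0.85, adjusted p = 0.0471), against 7.4% of all genes, with 7 at an unadjusted p under 0.05 against 23.0%. The authors' deposited table gave an FDR under 0.05 to 2 of the 57, Olfr112 (0.00987) and Olfr1280 (0.0267), against 11.5% of its rows.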

How the data were processed

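RNA from testes of mice aged 8 weeks was sequenced, 3 WT and 3 Ccdc117ko libraries, grouped by the genotype in their labels. Per the submitters' processing notes, the tools included STAR and DESeq2, and mm10 was the build; no versions are listed. How reads were counted, on which annotation and whether by strand is not given in the sources used here. Expression was deposited by the authors as log2 values, read from the values themselves as log2(normalized count + 1). After the log2 and the 1 were undone, values were divided by a step fitted per library. Of those under 500 reads, 100% were then whole within 0.01, hence this reading. The authors' deposited table also holds a p-value and FDR per gene, whose test is not stated. Reads recovered from the steps totalled 35791616 to 43461692 per library, and the intervals given cover the spread between libraries.

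The deposited log2 values of 32783 genes averaging 0.5 or more normalized counts were fitted with limma 3.58.1 (R 4.3.3; trend, genotype only), with Benjamini-Hochberg adjustment over all of them. Reported fold changes keep that offset of 1, which tends to shrink those of low genes. They are differences of mean log2 values, so with uneven libraries they can also exceed or reverse the ratio of means. Olfr482 had a ratio of means of 0.880 but a log2 fold change of -1.12, and Olfr279 had 1.25 but -0.10. GENCODE M21 (GRCm38) gave positions, exons and shared 50-base words for 36551 rows, and RefSeq GRCm38.p6 the promoter windows. Alternatives were other filters, pseudocounts, scaling, a block, length and GC correction and leaving out each library; voom, and the fits that left out libraries among genes averaging 10 or more, were added after the data were seen. The fit was also run on simulated reads, with the same extra variance setting for all genes, not estimated from these libraries. That run does not measure how well differences in the receptor genes could be found here.

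The receptor genes and all lists were chosen with earlier results of these data known. Genes named were those past the threshold, the 12 with the highest mean, the 3 with the largest rise and fall, those next to the level rule, those without overlap between genotypes, and those with a described role. Olfr1509, Olfr1344, the genes of the chromosome 2 window, the groups of neighbours and Olfr787 were named after their values were seen.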

Additional observations from a re-analysis of the deposited data

How the results depend on the processing

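No receptor gene was called with no filter on low values, pseudocounts 0.5 and 4, upper-quartile scaling, length and GC correction, the replicate block with and without that correction, each library left out (range 0 to 0), and the set without overlapping genes or without pseudogenes. The count was 2 when only genes averaging 10 or more were fitted, 1 with voom, and 0 to 3 with a library left out of that fit. The transduction list went from 2 calls to 6 in that fit, 0 under the replicate block with length and GC correction, and 0 to 3 with a library left out. The testis cell type lists went from 25 calls to 13 under the replicate block, 9 under the block with length and GC correction, and 0 to 21 with a library left out. Over all genes the calls were 2228, against 703 under the replicate block, 408 under the block with length and GC correction, 3798 of genes averaging 10 or more, and 6 to 1268 with a library left out; the cause was not tested, although fewer libraries or fewer genes entered the last 2 settings. Same-numbered libraries did not deviate together (r from -0.00388 to 0.00611 over 22878 genes), and the labels state no pairing. The check cannot exclude a pairing, since these deviations also hold counting noise.

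Of 23 named receptor genes 18 kept their direction in 21 settings. Olfr279 went from -0.10 to 0.0078 with pseudocount 4 and to 0.028 under length and GC correction, with or without the replicate block. With a library left out, in either fit, Olfr279 ran from -0.83 to 0.69 and reversed to 0.19 and 0.69, Olfr128 ran from -0.065 to 0.10 and reversed to -0.038 and -0.065, and Olfr1392 ran from -0.092 to 0.16 and reversed to -0.053 and -0.092. Olfr482 ran from -1.93 to 0.37, and Olfr558 from -0.10 to 0.44 with reversals at -0.058, -0.050 and -0.10. The planned edgeR and DESeq2 fits were not run, since the values are log2. Detected receptor genes with a mean under 20 had intervals of a median of 1.01 either side, which reflect the spread between libraries and not depth alone.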

Other observations

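Other chemosensory receptor families were also present in testis. Of 119 rows of the trace amine, vomeronasal and taste receptor families, 32 averaged at least 10 normalized counts. Of these 32 the test called 2, against 6.8% of all genes tested. The unadjusted limma p was under 0.05 for 3 of the 32, against 22.7% of all genes tested. Their median log2 fold change was 0.18, against 0.00 for all genes tested. The most abundant was Tas1r1, a subunit of the umami taste receptor, with 1110, 931 and 869 normalized counts in WT and 1037, 1160 and 1234 in Ccdc117ko, which overlapped (0.24, limma adjusted p = 0.206). Vmn2r7, a vomeronasal receptor, rose from 751, 769 and 747 to 867, 955 and 938 (0.28, limma adjusted p = 0.0294). All 3 Ccdc117ko libraries lay above the WT libraries, although Vmn2r7 shared 51.6% of its 50-base words with other transcripts, most with Vmn2r6. Vmn1r88 fell from 29.3, 17.0 and 13.8 to 0, 0 and 3.02 (-3.66, limma adjusted p = 0.0203). It averaged 20.03 in WT and 1.01 in Ccdc117ko and so entered the 32 through WT alone, which makes its call, 1 of the 2, no support for a difference in this set. Both calls were lost whenever 1 library was left out and under the replicate block, where the adjusted p was 0.0649 for Vmn2r7 and 0.0554 for Vmn1r88. With a library left out it ran from 0.0611 to 0.120 for Vmn2r7 and from 0.0761 to 0.122 for Vmn1r88.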
